A study of Homo sapiens with 12 samples.

Results

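The genes described are 10 enzymes that build nucleotides from small precursors, taken as a list of gene symbols: PPAT, GART, PFAS, PAICS, ADSL, ATIC and IMPDH2 for purines, and CAD, DHODH and UMPS for pyrimidines. Of these, 9 passed the filter on low values and were tested among 10050 genes; DHODH did not pass and is described by its values and by a fit without the filter. They were measured in HK-2, a human cell line that was immortalised from kidney proximal tubule, in a study that looks for signatures of nephrotoxic compounds. The groups were cells exposed to the compound labelled Ra for 12 h, control cells at 12 h, cells exposed to Ra for 48 h and control cells at 48 h, with 3 arrays per group that the labels call biological replicates. Control cells received the vehicle, all cells were plated a day before treatment in multi-well plates and were near confluence when treated, and all grew in the same defined medium with EGF, insulin and hydrocortisone. What Ra is and at which dose it was given is not given in the sources used here. Total RNA was hybridised to 12 Affymetrix arrays of 54675 probe sets, and each value below is the deposited GCRMA expression value in log2 units, where a difference of 1 is a 2-fold change.

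Cells make purines by assembling the ring step by step on ribose phosphate, starting at PPAT and ending at IMP, which IMPDH2 then commits to the guanine nucleotides. Pyrimidines are made in the reverse order: CAD and DHODH build the ring first, and UMPS attaches it to ribose phosphate to give UMP. Growing cells depend on these routes for RNA and DNA, while resting tubule cells can draw more on salvage of ready-made bases and nucleosides, and several of the enzyme genes are textbook targets of MYC.

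The epithelial markers KRT8, KRT18, KRT19, CDH1 and EPCAM all passed the filter, but of 12 proximal tubule markers, 9 of which had a probe set with 1 symbol, only PAX8 did, and LRP2, CUBN, AQP1, SLC34A1, SLC22A6 and SLC5A2 had group means of 2.10 to 3.27. None of the 5 endothelial and 5 immune markers passed. Of 5 fibroblast markers 3 did, COL1A1, DCN and LUM. Between control and Ra cells their means went from 8.27 to 8.59, from 9.07 to 9.45 and from 9.63 to 10.06 at 12 h, and from 8.05 to 7.03, from 8.95 to 9.83 and from 9.21 to 9.29 at 48 h; their part in the results was not tested. The median of all genes lay within 0.04 of the mean of the 12 h controls on 11 arrays and at -0.65 on Ra 48 h replicate 2, so the results of the tested enzymes that rest on it are given with and without that array. The median SD of a gene over the 3 arrays was 0.12 in the control and Ra groups at 12 h, 0.22 in the controls at 48 h and 0.43 with Ra at 48 h.

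Promoter windows (250 bases before to 50 after a start site, RefSeq, GRCh38.p14) were at hand for 8 of the 10 genes, all but ADSL and IMPDH2, as 12 windows, since GART and PAICS have 3 start sites each. PPAT and PAICS, which encode the first enzyme of the purine route and a later bifunctional one, start 136 bases apart on opposite strands of chromosome 4, at 56435615 and 56435752. The stretch between them is shown because both genes read out of it. Both fell with Ra at 12 h, and a part of this stretch in that was not tested. It lies at chr4:56435616-56435751, is written on the plus strand, and has its 3 copies of the GC box GGGCGG, the Sp1-type element, in capitals.
between the PPAT and PAICS start sites: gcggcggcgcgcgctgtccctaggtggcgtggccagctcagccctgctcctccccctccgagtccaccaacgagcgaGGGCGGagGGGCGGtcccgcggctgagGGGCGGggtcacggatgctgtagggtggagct
The E-box CACGTG, the element that MYC and MAX bind, occurred in 4 of the 12 windows, 1 each of PPAT, PAICS, ATIC and DHODH, against 7.26% of 35116 promoter windows of the same length. PPAT and PAICS share 1 copy, so these 4 genes hold it in 3 separate stretches. The 4 places are shown with the E-box in capitals, on the plus strand, at chr4:56435772-56435801 for PAICS, chr2:215311986-215312045 and chr2:215312076-215312105 for ATIC, and chr16:72008558-72008617 for DHODH.
PAICS after the start site: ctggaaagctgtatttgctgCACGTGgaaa
ATIC: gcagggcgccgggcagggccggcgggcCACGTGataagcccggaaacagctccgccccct
ATIC after the start site: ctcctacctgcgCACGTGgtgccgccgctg
DHODH: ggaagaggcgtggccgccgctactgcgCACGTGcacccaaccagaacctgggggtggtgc
The first base of the E-box lay at 41 after the PAICS start (the start being 1) and at -182 from PPAT, at -46 and 30 in ATIC and at -159 in DHODH. GGGCGG was in 8 of the 12 windows, and in all of the 8 genes but UMPS, against 45% of all windows. The E2F-type element TTCCCGCC was in 1 of the 12, the window of another PAICS start site at 56436260, against 3.16%. The ATF4-type element TGATGNAAT was in 0 of 12 against 0.991%, and the palindromic NRF1 element in 0 of 12 against 1.24%. All motifs were searched on both strands, and a match or its absence describes only the letters of these windows.

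With Ra at 12 h, 5 of the 9 tested enzymes were lower than in the controls and none was higher. UMPS, PPAT, PFAS, ADSL and PAICS fell by 0.23 to 0.62 log2 units, or 1.17-fold to 1.54-fold. Of all 10050 genes, 6.25% passed the test in the lower direction at this time, 7.34% in the higher and 13.6% in either (limma on the 6 arrays, Benjamini-Hochberg over all genes, threshold 0.05). The median difference of the 9 enzymes was -0.23, beside 0.01 over all genes. The Ra arrays all lay below the control arrays for 7 of the 9, where 16.9% of all genes did so. In RNA from whole cultures, less RNA per cell and fewer cells with much of it cannot be told apart.

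PPAT, the amidotransferase that takes the committed first step of purine synthesis, read 10.70, 10.51 and 10.41 in the control replicates 1 to 3 and 10.04, 10.00 and 10.16 in the Ra replicates. Every Ra array lay below every control array. The difference was -0.47 ± 0.09 (SE, n = 3 per group; limma adjusted p = 0.0215). Its second measurable probe set, 209434_s_at, gave -0.14 with overlapping arrays (limma over 17339 probe sets, of which 4.31% passed in the lower direction; adjusted p = 0.420), a value unlike the first, though the difference between the probe sets was not tested.

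GART, which carries 3 of the steps on a single protein, read 10.53, 10.43 and 10.46 in the controls and 10.41, 10.37 and 10.38 with Ra. The arrays do not overlap, but the gap between the nearest 2 is small. The difference of -0.08 ± 0.07 did not pass the test (limma adjusted p = 0.441). The other GART probe sets did not all point the same way. The values of 212379_at and 217445_s_at differed by -0.13 and -0.16, with overlapping arrays. Those of 210005_at went from 7.14 in the controls to 7.52 with Ra, a difference of 0.38 with all 3 Ra arrays above the controls (limma over probe sets, adjusted p = 0.089). Those of 230097_at went from 5.57 to 6.64, a difference of 1.08 with all 3 Ra arrays above the controls (limma over probe sets, adjusted p = 0.074). Neither passed the threshold, and which transcripts these probe sets report was not resolved here.

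**Figure D1:**
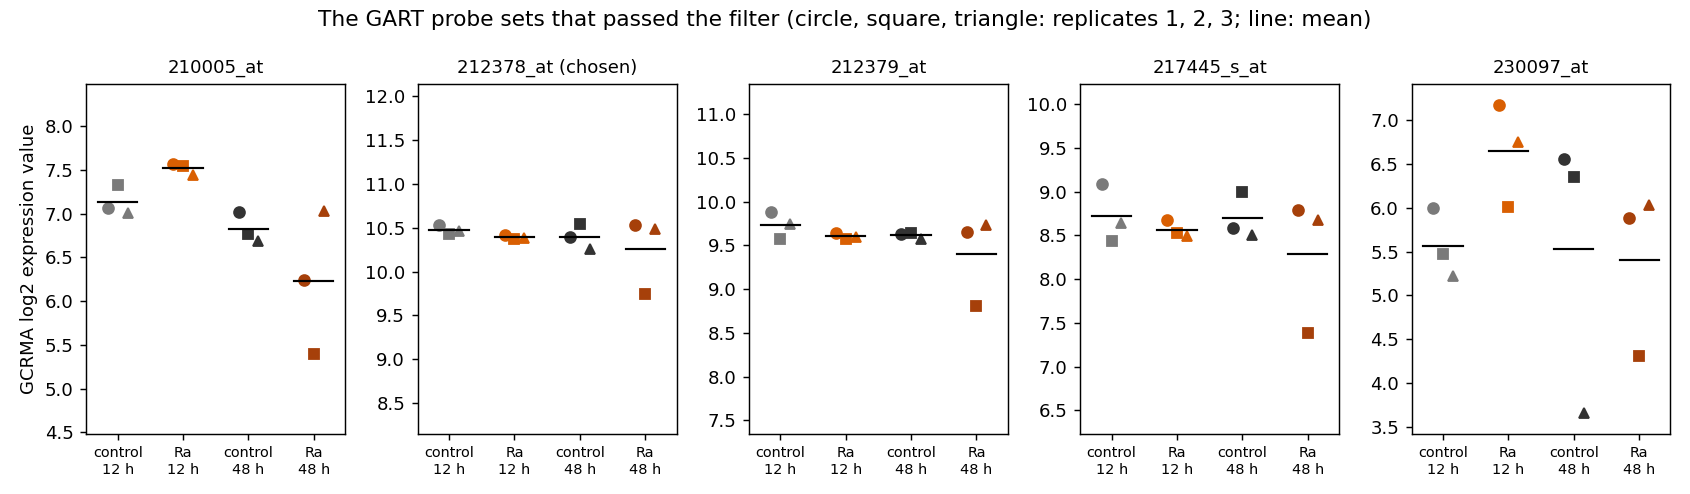
GCRMA log2 values of the 5 GART probe sets that passed the filter, 1 panel each, by group; symbols mark replicates 1 to 3 and lines the group means of 3 arrays. At 12 h the Ra arrays lie above the controls for 210005_at and 230097_at and below or among them for the other 3; each panel has its own axis.

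PFAS, which uses glutamine to add the next nitrogen, read 9.50, 9.48 and 9.40 in the controls and 8.94, 9.00 and 9.25 with Ra. Ra replicate 3 lay nearest the controls and still below all of them. PFAS fell by 0.40 ± 0.10 (limma adjusted p = 0.0425); in the wider fit over probe sets it missed the threshold (adjusted p = 0.054).

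PAICS, the bifunctional carboxylase and synthetase downstream, read 12.30, 12.36 and 12.28 in the controls and 12.16, 12.09 and 12.01 with Ra. The groups do not overlap. PAICS fell by 0.23 ± 0.06 (limma adjusted p = 0.0462). Its second probe set, 201014_s_at, fell by 0.33 (limma over probe sets, adjusted p = 0.047); in the fit over probe sets the first missed the threshold (adjusted p = 0.056).

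ADSL, the lyase that acts once on the way to IMP and again on the way from IMP to AMP, read 11.80, 11.71 and 11.87 in the controls and 11.53, 11.46 and 11.55 with Ra. The groups do not overlap, and the fall of 0.28 ± 0.07 passed (limma adjusted p = 0.0345). Its other probe set, 202144_s_at, differed by -0.27 (limma over probe sets, adjusted p = 0.053).

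ATIC, which closes the purine ring in the last 2 steps, read 11.74, 11.57 and 11.66 in the controls and 11.52, 11.46 and 11.50 with Ra. The arrays are apart, but the difference of -0.16 ± 0.07 did not pass (limma adjusted p = 0.137). IMPDH2, the growth-linked form of the dehydrogenase that opens the guanine branch, read 11.57, 11.60 and 11.95 in the controls and 11.77, 11.58 and 11.76 with Ra. The Ra arrays lie within the range of the controls, and the difference was 0.00 ± 0.11 with a 95% interval of -0.26 to 0.26 (limma adjusted p = 0.993).

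In the pyrimidine route, CAD, the 3-activity protein that starts ring synthesis, read 10.18, 10.08 and 10.35 in the controls and 10.14, 10.24 and 9.94 with Ra. The arrays overlap, and the difference was -0.10 ± 0.11 with a 95% interval of -0.34 to 0.15 (limma adjusted p = 0.589). UMPS, the bifunctional enzyme that ends the route, read 10.74, 10.74 and 10.70 in the controls and 10.16, 10.11 and 10.04 with Ra. The gap between the groups is many times the spread within them. UMPS fell by 0.62 ± 0.07, or 1.54-fold (limma adjusted p = 0.0057), and its second probe set, 215165_x_at, fell by 0.61 (limma over probe sets, adjusted p = 0.011). Both are of probe set types that can cross-hybridise, as are all measurable probe sets of PPAT, PAICS and ADSL.

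DHODH, the mitochondrial enzyme between CAD and UMPS, read 4.70, 4.79 and 5.13 in the controls and 4.29, 4.25 and 4.62 with Ra at 12 h. At 48 h it read 4.95, 5.30 and 5.00 in the controls and 4.50, 4.75 and 4.49 with Ra. Only 2 of its 12 arrays reached 5, the level of the filter, where values lean on the background model of GCRMA. The Ra arrays lay below the controls at both times, by -0.49 and -0.50. Of the 10050 tested genes, 16.9% had the Ra arrays below the controls at 12 h and 18.6% at 48 h. Without a filter neither difference passed among 19775 genes (limma adjusted p = 0.178 and 0.544), where 2.56% of genes passed at 12 h and 0% at 48 h.

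**Figure D2:**
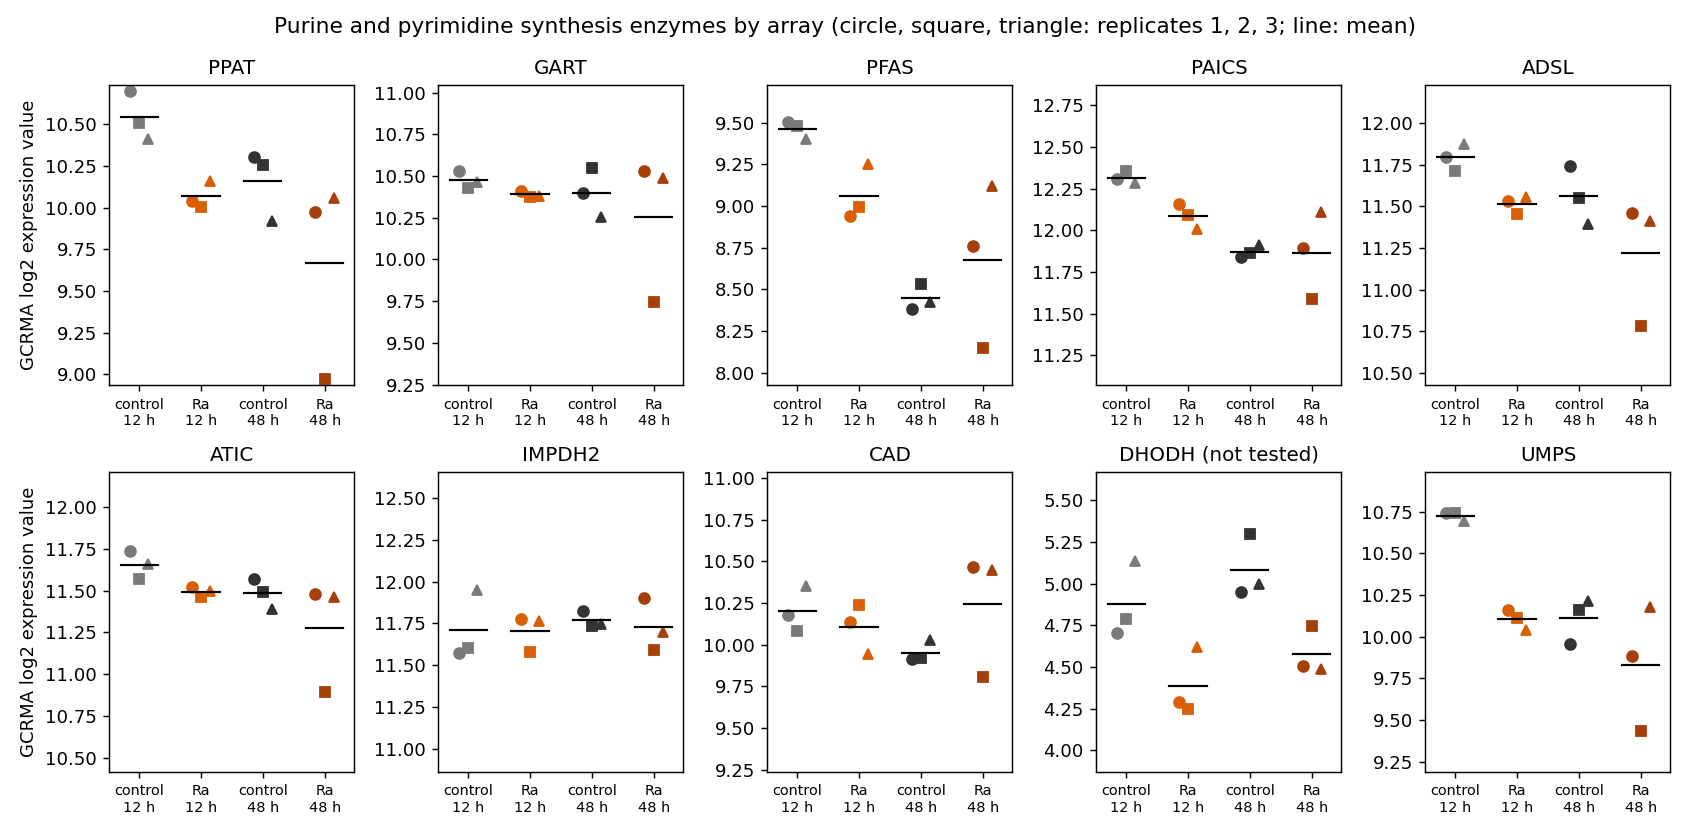
GCRMA log2 values of the 10 enzymes on the 12 arrays, 1 panel a gene, by group; symbols mark replicates 1 to 3 and lines the means of 3 arrays. UMPS shows the clearest step between control and Ra at 12 h, and Ra 48 h replicate 2 (square) is the lowest of its group for all enzymes except DHODH; the panels have their own axes, so heights cannot be set against each other.

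Most of the 12 h calls other than that of UMPS were lost when an array was left out. The 5 became 1, UMPS, without Ra replicate 1, without Ra replicate 2, without control replicate 1 or without control replicate 2. They became 2, PPAT and UMPS, without control replicate 3 and 4, all but PAICS, without Ra replicate 3. Calls over all genes fell alike, from 1366 to 332, 293, 412, 527 and 584 in the first 5 of these fits, or 2.92% to 5.81%, and stood at 1388 in the last. In a fit over all 12 arrays, whose spread includes the 48 h groups, 0 of 9 passed (UMPS adjusted p = 0.374, against 0.0026 to 0.036 in its other 15 alternatives by limma), as did 3 of 10050 genes, 0.0299%. With a block for the replicate number, the same 5 passed, while 2351 rather than 1366 of all genes did.

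At 48 h no enzyme passed in Ra against control, and neither did any of the 10050 genes (limma on 6 arrays: 0%; 1748 genes, 17.4%, had an unadjusted p under 0.05). The median over all genes was itself -0.20, and the median of the 9 enzymes was -0.14. All 9 had overlapping arrays, where 18.6% of all genes had the Ra arrays below the controls and 5.37% above, with adjusted p from 0.448 to 0.988. The 12-array fit called 1262 genes, 12.6%, and again 0 of the 9. The standard errors of the 9 ran from 0.18 to 0.33, where they ran from 0.06 to 0.11 at 12 h.

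PPAT read 10.30, 10.25 and 9.92 in the 48 h controls and 9.97, 8.97 and 10.06 with Ra. Its difference of -0.49 ± 0.33 had a 95% interval of -1.25 to 0.27, and became -0.14 without Ra replicate 2. UMPS read 9.96, 10.16 and 10.22 in the controls and 9.88, 9.44 and 10.18 with Ra. Its difference of -0.28 ± 0.27 became -0.08 without that array. ADSL and ATIC behaved alike in this respect, with differences of -0.34 ± 0.24 and -0.21 ± 0.23 that became -0.13 and -0.01.

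PFAS and CAD had the opposite sign. PFAS read 8.39, 8.53 and 8.42 in the controls and 8.76, 8.15 and 9.12 with Ra, a difference of 0.23 ± 0.31. CAD read 9.91, 9.92 and 10.02 in the controls and 10.47, 9.81 and 10.45 with Ra, a difference of 0.29 ± 0.26. In both, 2 Ra arrays lie above all controls and Ra replicate 2 below them. Without it the differences were 0.49 for PFAS and 0.51 for CAD, with the Ra arrays above the controls as for 23.2% of all genes, and neither passed (limma adjusted p = 0.206 and 0.173; over all alternatives 0.0099 to 0.993 for PFAS and 0.0047 to 0.853 for CAD). Both passed only where arrays were weighted by their fit, which gave Ra replicate 2 a weight of 0.09 and called 47.7% of all genes.

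GART, PAICS and IMPDH2 differed by -0.14 ± 0.28, -0.01 ± 0.20 and -0.04 ± 0.18. Their 95% intervals ran from -0.78 to 0.49, from -0.46 to 0.44 and from -0.46 to 0.38. Without Ra replicate 2 they differed by 0.11, 0.13 and 0.03. With each array centred on its median the sign of GART, PAICS, ATIC and IMPDH2 turned, to 0.11, 0.24, 0.04 and 0.21, and PFAS and CAD stood at 0.48 and 0.54; none of the 9 passed there, while 714 of all genes did.

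**Figure D3:**
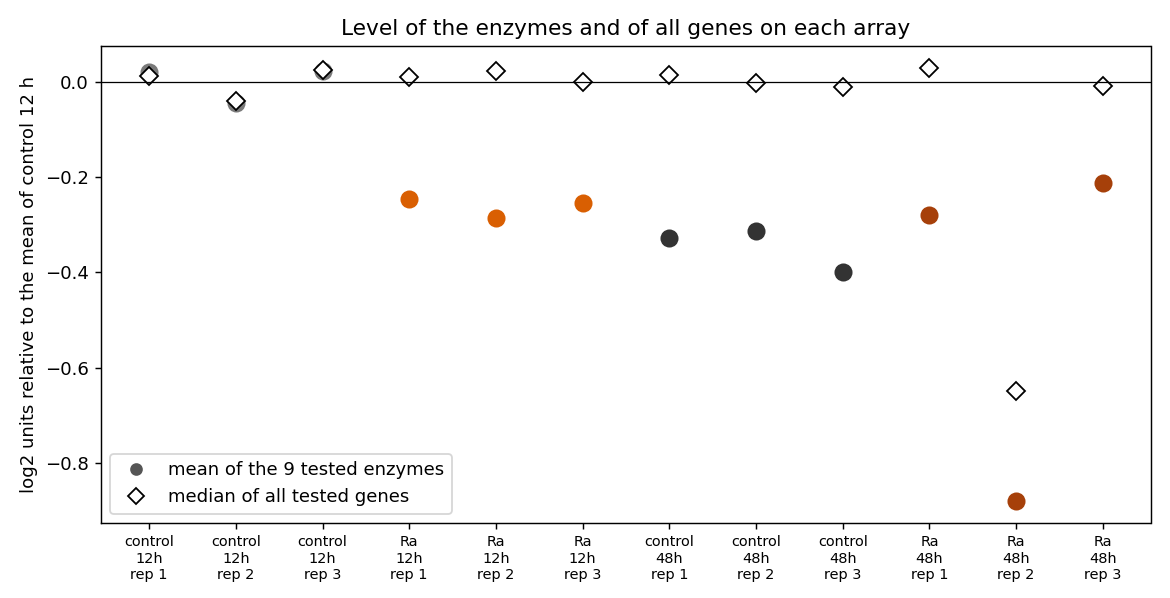
Mean of the 9 tested enzymes (circles) and median of all tested genes (diamonds) on each array, in log2 units relative to the mean of the 12 h controls. The enzymes lie at -0.25 to -0.29 on the Ra 12 h arrays and at -0.31 to -0.40 on the 48 h controls while the median of all genes stays near 0; on Ra 48 h replicate 2 both are low, at -0.88 and -0.65.

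In control cells alone, 3 of the 9 enzymes were lower at 48 h than at 12 h. This comparison uses the same 12 h control arrays as that of Ra at 12 h, so the values of both stand side by side without being set against each other. Of all genes, 16.6% passed in the lower direction and 33.2% in either (limma on 6 arrays). PFAS fell by 1.02 ± 0.11, from 9.46 to 8.45, or 2.02-fold (limma adjusted p = 0.0029). UMPS fell by 0.62 ± 0.11, from 10.73 to 10.11 (limma adjusted p = 0.0080). PAICS fell by 0.44 ± 0.08, from 12.31 to 11.87 (limma adjusted p = 0.0075). The second probe sets of UMPS and PAICS fell by 0.60 and 0.51 (limma over probe sets, of which 15.3% passed in the lower direction; adjusted p = 0.016 and 0.012). These 3 calls held in all alternatives that tested them, the 12-array fit, with 19.5% of all genes called, included.

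PPAT differed between the control times by -0.38 ± 0.14 and CAD by -0.25 ± 0.11, with the 48 h arrays all below the 12 h arrays, and neither passed (limma adjusted p = 0.077 and 0.128). The 48 h arrays lay below the 12 h arrays for 5 of the 9 enzymes, and for 26.0% of all genes. ADSL, ATIC, GART and IMPDH2 overlapped, at -0.23, -0.17, -0.08 and 0.06. The median of the 9 was -0.25, beside 0.01 over all genes. In order of level, UMPS was highest in the 12 h controls (10.73 ± 0.03, SD, n = 3), followed by the 48 h controls and Ra at 12 h (10.11 ± 0.14 and 10.10 ± 0.06), which differ by less than their spread, and Ra at 48 h (9.83 ± 0.37). PFAS went from 9.46 ± 0.05 in the 12 h controls through 9.06 ± 0.17 with Ra at 12 h and 8.68 ± 0.49 with Ra at 48 h to 8.45 ± 0.08 in the 48 h controls, the last pair lying within the spread of the Ra arrays. Each time was sampled once, so time in culture, density and any array batch cannot be told apart.

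With Ra, 0 of the 9 passed between 48 h and 12 h, as did 0 of 10050 genes (limma: 0%; 843 genes, 8.39%, at an unadjusted p under 0.05). The median of the 9 was -0.22 and that of all genes -0.21. PFAS read 9.06 ± 0.17 (SD, n = 3) at 12 h and 8.68 ± 0.49 at 48 h. UMPS read 10.10 ± 0.06 and 9.83 ± 0.37. Without Ra 48 h replicate 2 the 9 differences ran from -0.12 for PFAS to 0.35 for CAD, with a median of -0.05.

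The effect of Ra at 48 h minus its effect at 12 h was tested over all 12 arrays, and 0 of the 9 passed (2 of 10050 genes, 0.0199%; 1933 genes, 19.2%, at an unadjusted p under 0.05). PFAS had the largest value among the 9, 0.63 ± 0.31 (limma adjusted p = 0.293). It passed without Ra 48 h replicate 2, where 320 of all genes, 3.18%, did, at 0.89 (adjusted p = 0.040; 0.00039 to 0.511 over its alternatives by limma). CAD and UMPS followed at 0.39 ± 0.27 and 0.34 ± 0.26 (limma adjusted p = 0.447 and 0.480). CAD passed at 0.65 with each array centred on its median (adjusted p = 0.032; 0.0045 to 0.709 over its alternatives by limma). The other 6 ran from -0.06 for ADSL to 0.22 for PAICS. Without Ra 48 h replicate 2 all 9 were above 0, with a median of 0.33 beside 0.02 over all genes, and CAD and UMPS stood at 0.60 and 0.54. The median of all genes was -0.19 here, and that of the enzymes -0.02.

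**Figure D4:**
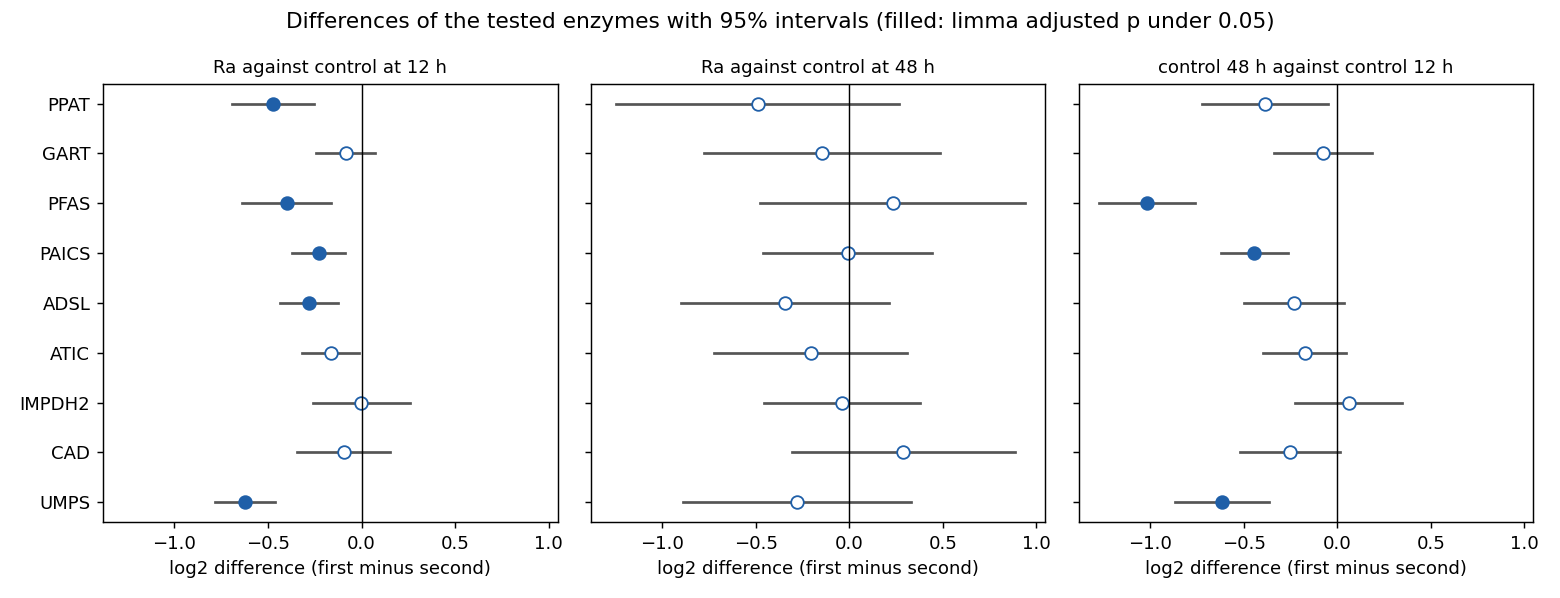
Log2 differences of the 9 tested enzymes in the comparisons, for Ra against control at 12 h and at 48 h and for control 48 h against control 12 h; points are differences of means of 3 arrays, bars 95% limma intervals, and filled points passed the adjusted threshold. PPAT, PFAS, PAICS, ADSL and UMPS lie below 0 with Ra at 12 h and are filled, as are PFAS, PAICS and UMPS in the controls over time; all 9 bars of Ra against control at 48 h cross 0.

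The enzymes did not all vary together. Over the 12 arrays the median Pearson correlation of each enzyme with the others was 0.82 for PPAT, 0.80 for UMPS, 0.79 for ATIC and 0.77 for ADSL, but 0.39 for CAD and 0.22 for IMPDH2. Without Ra 48 h replicate 2, whose low level all pairs share, these were 0.60, 0.68, 0.61, 0.49, 0.14 and -0.16. ADSL and ATIC were the closest pair, at 0.97 and 0.92 without that array, and PFAS and PAICS stood at 0.93 and 0.90. Outside the list, the genes whose values most resembled the scaled mean of the enzymes over the 12 arrays were TSN, SHQ1, THOP1, DHX38 and DAXX, with correlations of 0.986, 0.983, 0.980, 0.978 and 0.977. Without that array they were 0.951, 0.964, 0.939, 0.925 and 0.922. SHQ1, an assembly factor of H/ACA ribonucleoproteins, fell by 0.56 with Ra at 12 h (limma adjusted p = 0.020). DHX38 and THOP1 fell by 0.49 and 0.47 (limma adjusted p = 0.032 and 0.045), where 6.25% of all genes fell. TSN and DAXX differed by -0.16 and -0.26 and did not pass (limma adjusted p = 0.139 and 0.167). The correlations are descriptions of 12 arrays that share conditions and level shifts, and the 5 genes were chosen by them.

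Around the listed enzymes, 90 further genes of nucleotide metabolism and of MYC and its partners were listed, and 63 of them were measured. With Ra at 12 h, 5 of the 63 rose and 3 fell, or 7.94% and 4.76%, close to the 7.34% and 6.25% of all genes. Their median difference was 0.02, and none of these 8 passed in the 12-array fit. Salvage, which recycles bases and nucleosides, gave 2 rises and 1 fall among 13. TK2, the mitochondrial thymidine kinase, rose by 1.09 ± 0.16, from 8.21 to 9.30 (limma adjusted p = 0.011). UPP1, which splits uridine into uracil and ribose phosphate, rose by 0.73 ± 0.10 (limma adjusted p = 0.0077). PNP, the purine nucleoside phosphorylase, chosen after its values were seen, fell by 0.54 ± 0.11 (limma adjusted p = 0.023).

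In the supply of folate one-carbon units, which PPAT's route uses at the GART and ATIC steps, 1 of 8 fell and none rose. It was SLC19A1, the reduced folate carrier, at -0.75 ± 0.13 (limma adjusted p = 0.015). Of deoxynucleotide genes 1 of 8 rose, DUT, by 0.26 ± 0.07 (limma adjusted p = 0.041). Of breakdown genes 1 of 8 fell, AMPD2, the AMP deaminase, by 0.64 ± 0.12 (limma adjusted p = 0.017). None of the 4 genes of PRPP synthesis, the 2 measured others of the IMP branches, the 3 of CTP synthesis, the 8 kinases of nucleoside mono- and diphosphates or the 1 measured nucleoside transporter passed at 12 h by limma. GMPS, the GMP synthase downstream of IMPDH2, differed by 0.22 ± 0.07 (limma adjusted p = 0.069).

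Among MYC and its partners 2 of 8 rose at 12 h, where 7.34% of all genes did. Both are MAX partners that repress where MYC activates. MNT rose by 0.69 ± 0.14 (limma adjusted p = 0.023) and MXI1 by 0.73 ± 0.17 (limma adjusted p = 0.032). MYC itself read 12.05, 11.72 and 12.20 in the controls and 12.51, 12.26 and 12.40 with Ra. Its difference of 0.40 ± 0.12 did not pass (limma adjusted p = 0.071). At 48 h 6 of these 8 genes were lower with Ra and 2 higher, with a median of -0.51 beside -0.20 over all genes. None passed by limma. MXD1 differed by -2.16 with the Ra arrays below the controls, and MXI1 by -0.67 with overlapping arrays. Without Ra 48 h replicate 2 these were -1.51 and -0.28. The part of these genes in the values of the enzymes was not tested. PAX8 fell by 0.46 ± 0.09 at 12 h (limma adjusted p = 0.023), while the epithelial markers averaged 11.19 in the controls and 11.39 with Ra.

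At 48 h 0 of the 63 passed by limma, as for all genes. Among the larger differences were -3.98 for ALDH1L2, whose Ra mean of 4.44 is under the level of the filter, and -1.55 for SHMT2, both mitochondrial enzymes of the one-carbon pathway. Others were -1.79 for UPP1, 2.06 for NT5E, the surface nucleotidase, and 1.47 for RRM2, a ribonucleotide reductase subunit. The 12 h control means of ALDH1L2, SHMT2, UPP1, NT5E and RRM2 were 4.67, 10.77, 9.31, 9.98 and 13.52. Their 48 h control means were 8.42, 12.19, 11.71, 8.23 and 11.41. With Ra the means were 6.19, 10.90, 10.04, 10.15 and 13.63 at 12 h and 4.44, 10.64, 9.92, 10.29 and 12.88 at 48 h. The Ra arrays did not overlap the controls for any of these 5 genes at 48 h. Of all genes, 18.6% had the Ra arrays below the controls and 5.37% above. The differences of the 5 without Ra 48 h replicate 2 were -3.71, -1.25, -1.60, 2.27 and 1.59. MTHFD2L, also of the one-carbon list, differed by -2.11, or -1.38 without that array, and its arrays did not overlap either. AMPD3, of the breakdown list, differed by -1.49 with overlapping arrays. In the 12-array fit 14 of the 63 passed, 4 higher and 10 lower, or 22.2%. Of all genes 12.6% passed there, 301 higher and 961 lower, with a median difference of -0.20 over all genes. The spread in that fit includes the 12 h groups, which varied less, so it is narrower than that of the 48 h arrays alone.

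In the controls over time 10 of the 63 rose and 21 fell, or 15.9% and 33.3%, where 16.6% of all genes passed in each direction. PRPS1 and PRPS2, which make the PRPP that both routes consume, fell by 1.44 and 1.17 (limma adjusted p = 0.018 and 0.011). IMPDH1 fell by 1.02 (limma adjusted p = 0.011), where IMPDH2 differed by 0.06. RRM2 fell by 2.11 (limma adjusted p = 0.0047), while UPP1 rose by 2.40 and SHMT2 by 1.42 (limma adjusted p = 0.0022 and 0.0057).

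**Figure D5:**
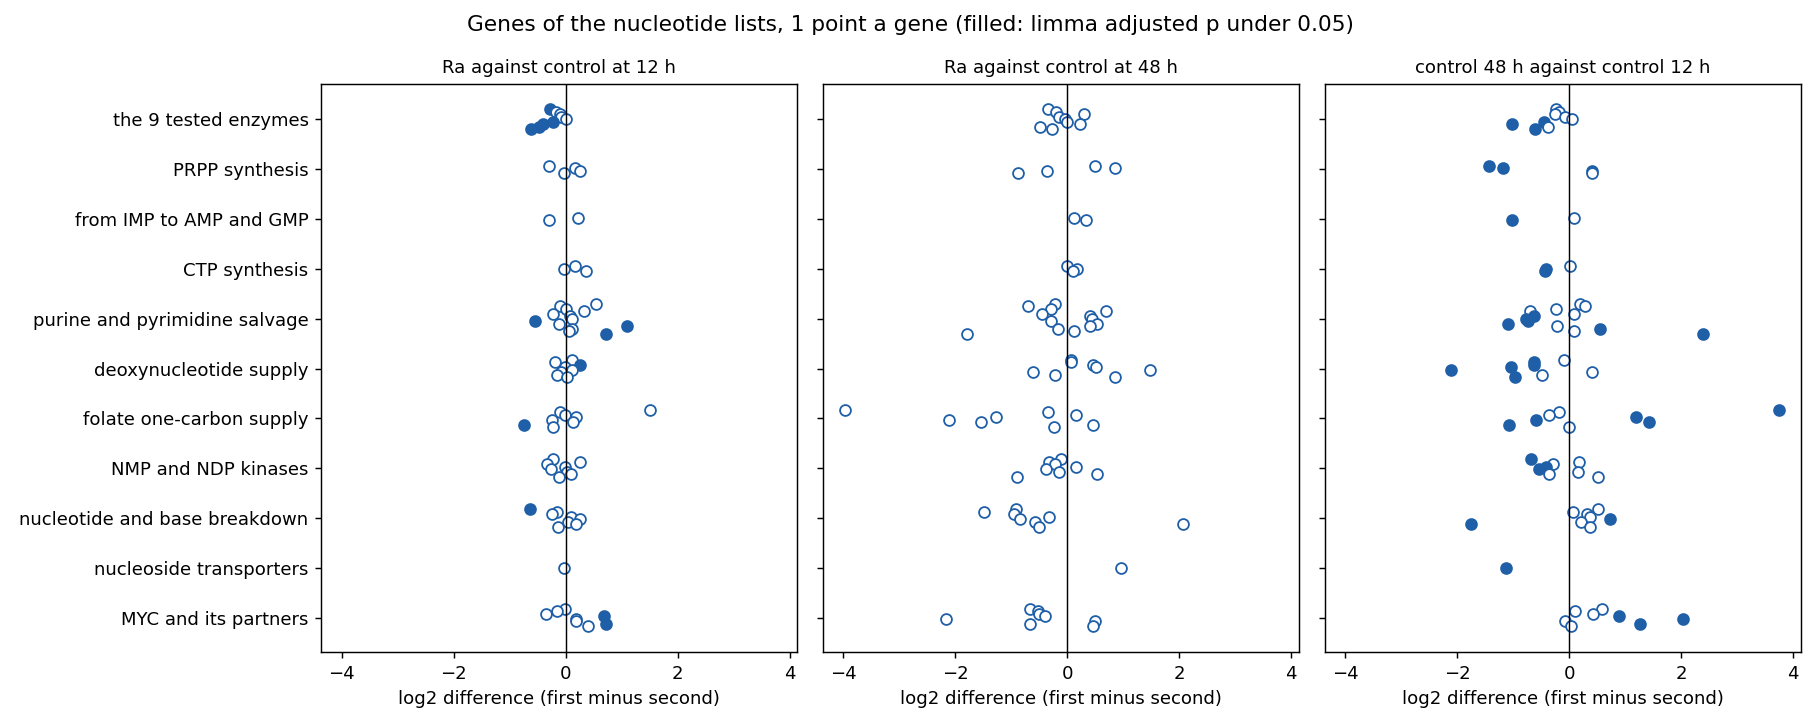
Log2 differences of the 9 tested enzymes and of the 63 measured genes of the other nucleotide lists, 1 point a gene, for Ra against control at 12 h and at 48 h and for control 48 h against control 12 h; filled points passed the limma threshold. At 12 h the enzymes lie at or below 0, with 5 filled, while the other lists lie on both sides of it.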

How the data were processed

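The authors deposited 1 table of log2 expression values made with GCRMA, per the submitters' processing notes; its version is not given in the sources used here. GCRMA models background from probe sequence, which sets most values under 5. Each gene was represented by its probe set with exactly 1 symbol (41097 of 54675; 1801 have several, 11777 none) and the highest mean, kept where 3 of 12 arrays reached 5. limma 3.58.1 (R 4.3.3) was fitted with an intensity trend on the 6 arrays of each comparison, and on 12 for the difference of effects, with Benjamini-Hochberg adjustment over 10050 genes at 0.05. It was tested on simulated data with spreads modelled on each group. For Ra against control, 34.3% of changes of 0.5 log2 units were recovered at 12 h and 0% at 48 h. For changes of 1 these were 91.0% and 1.49%, and for changes of 2 they were 100% and 62.1%. The members and lists were chosen with earlier results of these data known. The design foresaw 10 tested members; DHODH failed the filter, leaving 9. The rule for naming genes took all members, up to 3 per list with the largest difference at 12 h and at 48 h, the 5 most alike genes, and GAPDH and ACTB. GAPDH and ACTB differed by 0.05 and -0.07 at 12 h and by -0.04 and 0.07 at 48 h. Of the list genes that the rule took, only some are printed, chosen after their values were seen. Other names in the text were also chosen after their values were seen. Whether replicates came from separate cultures is known only from the word biological in the labels; no array pair was identical. The number of arrays limits the precision. Same-numbered arrays at 12 h deviated together (correlations 0.182, 0.421 and 0.344, and every array correlated best with its own number), so their numbers were taken to pair them there, from the data; elsewhere at least 1 pair was under 0.1. The main fits did not use this pairing, which entered only through the replicate block, an alternative. Alternatives were the filter, probe set choice, quantile normalization, median centring, moderation, array weights, the block, 1 fit over 12 arrays and each array left out; centring without Ra 48 h replicate 2, the fit of single probe sets and the GGGCGG search were added after seeing the data.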

Additional observations from a re-analysis of the deposited data

How the results depend on the processing

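No called result changed sign; values that were not called did, such as GART at 12 h (0.22 with its probe sets averaged) and the 48 h median (0.11 after centring). The 12 h count of 5 became 1 without a filter, 1 of 4 testable without probe set types that can cross-hybridise, 2 without the intensity trend, 0 in 1 fit over 12 arrays and 1 to 4 with an array left out; quantile normalization or centring dropped PAICS, leaving 4. Its median was -0.27 with a gene's probe sets averaged, -0.13 without those types, and -0.27 to -0.19 with an array left out. At 48 h array weights called 2, where 47.7% of all genes passed. Leaving out any 1 array at 48 h gave 0, with medians from -0.28 to 0.03. For controls over time the 3 became 1 of 4 testable without cross-hybridising types and 6 with weights, where 33.0% and 57.6% of all genes passed. Leaving out arrays kept 3, while 1429 to 4583 of all genes were called, with medians of the enzymes from -0.32 to -0.19. For Ra over time leaving out arrays gave 0 and medians from -0.34 to -0.05. For the difference of effects the count was 2 after quantile normalization and 2 after centring, where 9.39% and 8.52% of all genes passed. It was 4 with weights (44.4% of all genes) and 1 with centring without Ra 48 h replicate 2 (3.47%). It was 0 to 1 with an array left out, where 1 to 1041 of all genes were called. The median of the enzymes there was 0.17 without cross-hybridising types. It was 0.22, 0.25 and 0.33 under quantile normalization, centring and centring without Ra 48 h replicate 2, and -0.12 to 0.33 with an array left out. The cause of these shifts was not tested; fewer genes tested or fewer arrays are part of the construction of some. The replicate block kept the counts of enzymes at 5, 0, 3, 0 and 0 and changed no enzyme's call. It called 2351, 131, 2706, 235 and 36 of all genes against 1366, 0, 3334, 0 and 2. Outside 12 h the same-numbered arrays did not all deviate together, so whether the numbers pair them there is not known. Among all genes at 12 h, no filter called 506 and the 12-array fit 3, against 1366. At 48 h the higher filter called 307, quantile normalization 641, centring 714, weights 4790 and the 12-array fit 1262, against 0. In the controls no filter called 2091, the 12-array fit 1955 and weights 5788, against 3334. For the difference of effects weights called 4464, quantile normalization 944, centring 856, the higher filter 43, robust moderation 17, the stricter probe set types 12 and no filter 5, against 2; for Ra over time weights called 521, centring 41 and no filter 2, against 0.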
